A study of Mus musculus with 6 samples.

Results

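The Frizzled receptors are the membrane-spanning proteins that bind secreted Wnt ligands at the cell surface. In the mouse the family has 10 genes, Fzd1 to Fzd10, and all 10 had probes on the array: 16 of its 41174 distinct probes carried one of these names, and 15 of the 16, covering all 10 genes, were bright enough to be tested. They were read in embryonic day 8.5 (E8.5) whole mouse embryos on 1-colour Agilent arrays, 1 array per sample, in Brg1d/d embryos (conditional knockout of Brg1, here CKO, 3 samples) and Brg1fl/fl embryos (floxed allele, labelled wild type, here control, 3 samples). The dams of both groups were injected with tamoxifen. Brg1 (gene symbol Smarca4) is an ATPase of the SWI/SNF complexes, which move nucleosomes. The labels call the samples biological replicates; the sources used here give neither the Cre driver, nor whether controls carry it, nor the time of injection, nor the number of embryos per sample. Because whole embryos were read, fewer cells that express a receptor and less of its RNA per cell cannot be told apart.

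As background, a Wnt ligand holds the cysteine-rich outer domain of a Frizzled protein. With an Lrp5 or Lrp6 co-receptor this recruits Dishevelled and stabilises beta-catenin, and with other partners the same receptors steer planar cell polarity, the alignment of cells within a sheet. In the early mouse embryo these pathways act in the formation of the body axis, closure of the neural tube and growth of vessels. In mouse yolk sac endothelium, BRG1 has been reported to promote transcription of Frizzled genes, which is the question that the family raises here.

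No Frizzled gene changed through the brightest of the probes that carry its name. Of the 10 genes 0 rose and 0 fell by limma, where 10.5% of all 15021 tested genes passed, and at an unadjusted p under 0.05 they were 2 of 10 (Fzd3 and Fzd9), against 32.5% of all genes. A further pair of probes carries older names that RefSeq lists as synonyms of Fzd3 and Fzd5, and both are brighter than the probes named after these genes. With them taken in, a choice made after the data were seen, 1 of the 10 genes fell, Fzd5 (limma adjusted p 0.0323), and 3 had an unadjusted p under 0.05. Their values stand among the closing observations, and all counts here leave them out. Over the 15 probes 0 rose and 1 fell, the dimmer probe of Fzd8, where 9.37% of all 27847 tested probes passed (5.02% higher and 4.35% lower in CKO). That Fzd8 probe entered the test through the controls alone, the group where it is high, and with no filter on dim probes it did not pass. Of all probes 1397 were higher and 1211 lower, and with median scaling 1103 and 1437. At an unadjusted p under 0.05 the Frizzled probes were 4 of 15, against 31.7% of all tested probes. A change here means a limma p, adjusted by Benjamini-Hochberg over all tested probes, under 0.05. The differences of the 15 probes (CKO minus control, log2 scale) ran from -1.48 to 0.74 with a median of -0.28, against a median of 0.07 over all tested probes. All 3 CKO arrays lay below all 3 controls at 5 of the 15 probes and above them at 0. Over all tested probes the genotypes did not overlap at 39.3%, with the CKO arrays below at 17.5% and above at 21.9%.

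**Figure D1:**
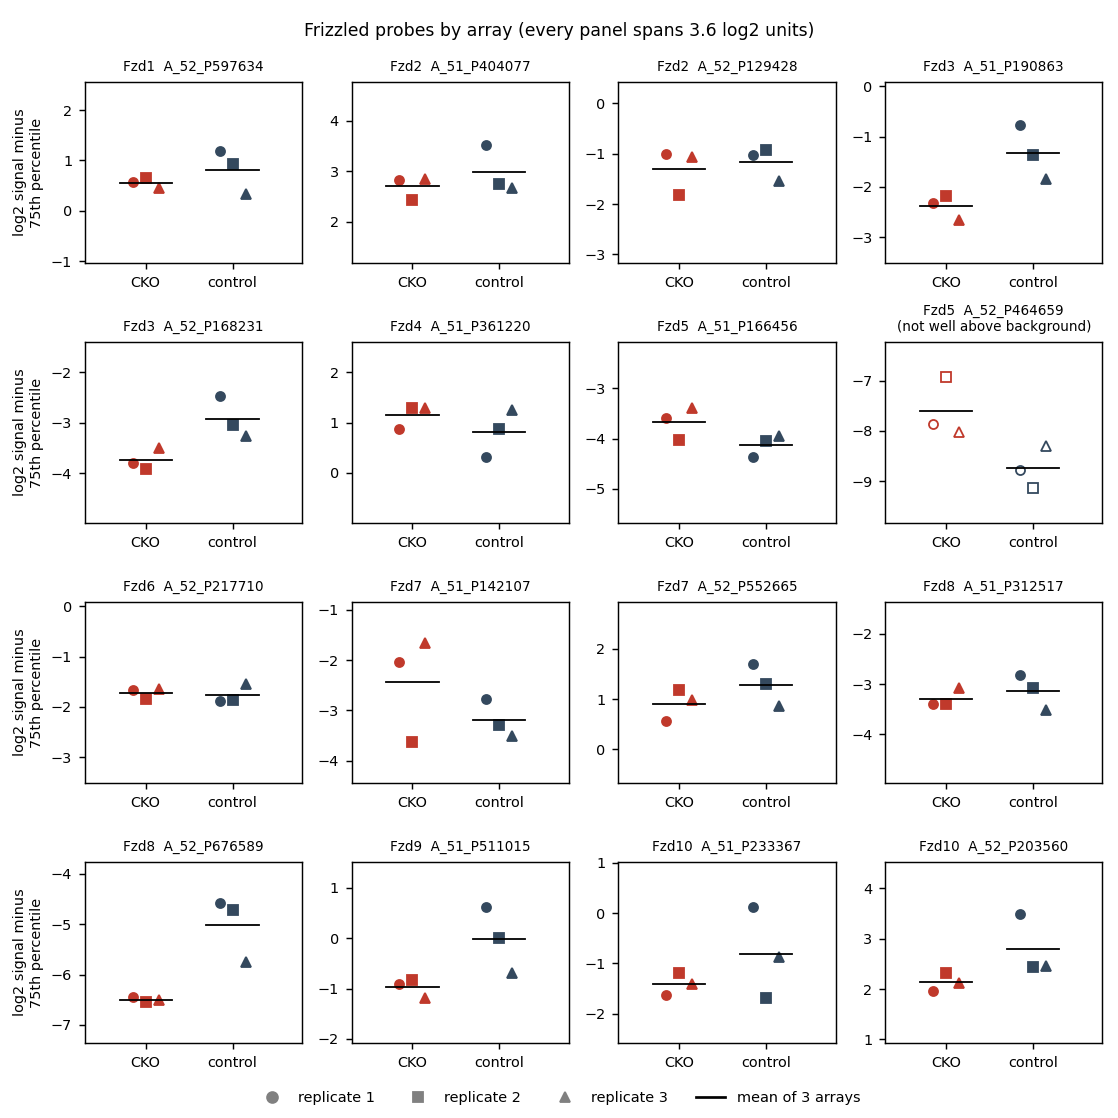
Level of each of the 16 Frizzled probes on each array, as log2 processed signal minus the 75th percentile of its array, in CKO (left) and control (right) embryos. Shapes mark the replicate number, bars the mean of 3 arrays, and open symbols the Fzd5 probe that was not well above background on any array. Among tested probes, the groups do not overlap at both Fzd3 probes, Fzd9, the dimmer Fzd8 probe and the brighter Fzd10 probe.

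The arrays differed in ways that touch these values. The 3 controls and CKO 2 were scanned on 1 day, CKO 1 and CKO 3 on days of their own. The 3 controls shared a slide and each CKO array had its own, so slide and genotype cannot be told apart. The brightest spike-in control read 12934 and 6905 units on CKO 1 and CKO 3, against 208550 to 241121 on the other arrays. Between 68.5% and 73.5% of spots were well above background. The 3 Smarca4 probes fell by 2.08 to 2.69 on the log2 scale (limma adjusted p 0.0054 to 0.0129), although no source used here gives the exons deleted. Where useful, the same-day value is given below: CKO 2 minus the mean of the 3 controls. It rests on 1 CKO array and so has no error estimate, and it shares its arrays with the main difference.

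Control 1 also stood apart from the other controls. It was the highest control at 11 of the 15 Frizzled probes, with a median of 0.62 above the mean of controls 2 and 3 on the log2 scale, while over all tested probes it was the highest control at 50.1% with a median of 0.10. Of the marker lists, all 8 neural tube genes and all 6 paraxial mesoderm genes had a higher signal in control 1 than controls 2 and 3 averaged, and all 8 yolk sac endoderm and all 8 primitive red cell genes a lower one. Each neural tube, paraxial mesoderm and yolk sac gene was well above background on all 6 arrays. The summed neural tube signal was 8.6, 9.71 and 8.69 in CKO 1, 2 and 3, and 29.8, 17.5 and 11.2 in controls 1, 2 and 3, in multiples of the array's 75th percentile. For yolk sac endoderm the sum was 300.0 to 353 in CKO, against 89, 385 and 400.4 in controls 1, 2 and 3. The other marker lists, read without a test as a check of the tissue, had sums of 3.01 to 3.39 in CKO and 6.42 to 18 in controls for paraxial mesoderm, 11.6 to 16.6 in CKO and 133 to 192 in controls for heart, 2.52 to 3 in CKO and 2.59 to 5.57 in controls for neural crest, 60.0 to 73.7 in CKO and 69.7 to 276 in controls for primitive red cells. For extra-embryonic and other cells they were 26.3 to 35.7 in CKO and 14.3 to 21.8 in controls (trophoblast), 0.461 to 0.75 in CKO and 2.13 to 10.1 in controls (maternal decidua), 0.289 to 0.422 in CKO and 0.139 to 0.477 in controls (leukocytes), 2.73 to 3.03 in CKO and 0.276 to 0.528 in controls (pluripotent epiblast). In the decidua and leukocyte lists, only 2 of 5 genes each cleared background on every array, and 1 gene each on none. A sum weighs the brightest genes most. The decidua sums were lower in CKO, yet its genes had a median difference of 0.36 (CKO minus control, log2 scale). With so few decidua genes above background, these values cannot tell whether decidual signal differed, and this was not tested. That median was 0.87 for leukocytes and 0.67 for yolk sac endoderm. The part of the listed tissues in the Frizzled values was not tested. Without control 1 the median difference of the Frizzled probes was -0.07, against 0.09 over all tested probes.

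**Figure D2:**
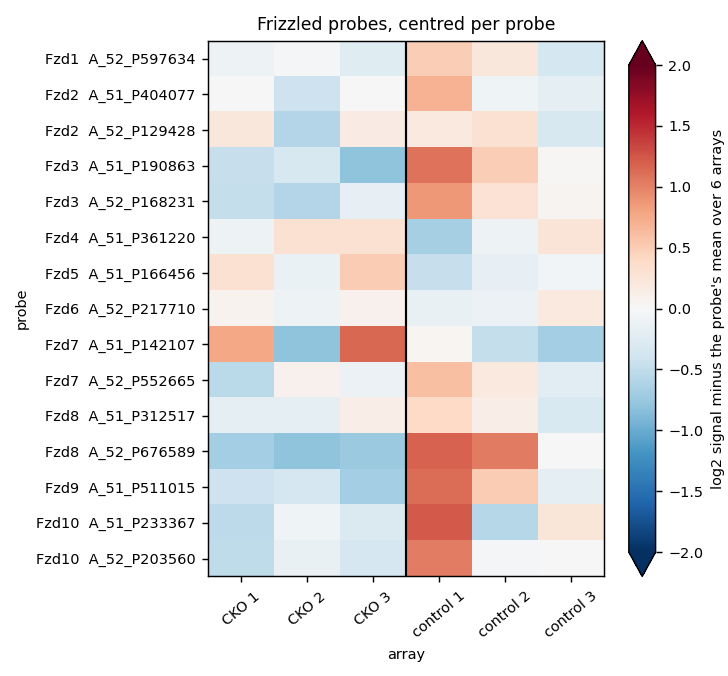
Each tested Frizzled probe (rows) on each array (columns, CKO left of the line), as log2 signal minus that probe's own mean over the 6 arrays; the colour scale ends at 2 log2 units in each direction. Control 1 is the highest control at 11 of 15 probes, and CKO 1 and CKO 3 part from CKO 2 at the dimmer Fzd7 probe.

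Fzd1, Fzd2 and Fzd7 form a subfamily of close relatives. In the mouse they act together in closure of the palate and heart septa and in convergent extension, the narrowing of tissue by which the body axis lengthens. None of their probes passed. The array reads Fzd2 and Fzd7 each through a probe in the same conserved stretch, and both are shown because their likeness bears on whether the receptors are read apart. Written 5′ to 3′, with capitals for the bases that the pair shares where aligned, they were as follows.
Fzd2 probe: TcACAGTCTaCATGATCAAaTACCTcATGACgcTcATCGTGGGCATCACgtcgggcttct
Fzd7 probe: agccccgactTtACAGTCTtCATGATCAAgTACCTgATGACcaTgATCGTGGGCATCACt
They shared 42 of 50 aligned bases (84%), with a longest unbroken run of 14, and no other pair among the 16 probes shared more than 33 bases. Whether the RNA of one receptor binds the probe of the other was not tested. In the array's annotation (build mm7) the Fzd2 probe lies on chromosome 11, 102715340 to 102715399, and the Fzd7 probe on chromosome 1, 59735681 to 59735740. No gene models of mm7 were used here, so exon or UTR is not assigned.

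Neither Fzd2 probe passed. The brighter one, shown above, read 2.83, 2.42 and 2.85 for CKO 1 to 3, beside 3.53, 2.75 and 2.66 for controls 1 to 3 (log2 scale, set against each array's 75th percentile). The groups overlapped, and control 1 was the highest of the 6. The difference was -0.28 ± 0.28 (SE, n = 3 and 3), with a 95% confidence interval of -0.94 to 0.38 and a limma adjusted p of 0.496. The same-day value was -0.56, and without control 1 the difference was -0.01. The second Fzd2 probe, 1432 bases along the chromosome, differed by -0.13 ± 0.29 (adjusted p 0.777, same-day value -0.65), and by -0.32 to 0.13 with 1 array left out.

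Fzd7, which carries Wnt signals in intestinal stem cells of the mouse, gave probes whose differences had opposite signs. The brighter probe gave log2 levels of 0.56, 1.18 and 0.98 (CKO 1 to 3) and 1.70, 1.30 and 0.87 (controls 1 to 3), a difference of -0.38 ± 0.27 (95% confidence interval -1.03 to 0.27, adjusted p 0.36). The dimmer probe, whose sequence is given above, gave levels of -2.04, -3.62 and -1.67 across CKO 1 to 3 and of -2.77, -3.28 and -3.50 across controls 1 to 3. CKO 1 and CKO 3, the arrays with low spike-in signal, were above all controls, and CKO 2 was below all controls. Its difference was 0.74 ± 0.52 (95% confidence interval -0.50 to 1.98, adjusted p 0.35), while the same-day value was -0.44. Without CKO 2 this probe passed, at 1.33 (adjusted p 0.035). The difference of the dimmer probe exceeded that of the brighter one by 1.12, with a two-sided exact permutation p of 0.4. With 3 arrays against 3 this test cannot go below 0.1.

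Fzd1 had 1 probe, which read 0.58, 0.65 and 0.45 for CKO 1 to 3, beside 1.19, 0.92 and 0.33 for controls 1 to 3. The CKO arrays lay within the range of the controls. The difference was -0.25 ± 0.24 (95% confidence interval -0.83 to 0.33, adjusted p 0.491, same-day value -0.16), and -0.07 without control 1 and -0.49 without control 3.

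Fzd3 and Fzd6 form the subfamily best known for planar polarity. In the mouse Fzd3 guides axon tracts, Fzd6 orients hair follicles, and loss of both leaves the neural tube open. Fzd3 was lower in every CKO array than in every control on both of its probes, but neither passed. One probe is shown because the array's annotation spreads its 60 bases over 22750 bases of the genome (chromosome 14, 60072091 to 60094840, minus strand), as for a probe that joins separated parts of the transcript.
Fzd3 probe: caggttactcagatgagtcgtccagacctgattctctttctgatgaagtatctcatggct
This probe gave log2 levels of -3.80, -3.92 and -3.50 (CKO 1 to 3) and -2.47, -3.05 and -3.27 (controls 1 to 3). Its difference was -0.81 ± 0.25 (95% confidence interval -1.41 to -0.21), with an adjusted p of 0.0892. The brighter Fzd3 probe gave levels of -2.32, -2.18 and -2.66 across CKO 1 to 3 and of -0.77, -1.37 and -1.84 across controls 1 to 3. There the difference was -1.06 ± 0.30 (95% confidence interval -1.77 to -0.35, adjusted p 0.0728), or 2.09-fold lower in CKO. Control 1 was the highest control on both probes. The same-day values, -0.86 for the brighter and -0.99 for the other probe, were of similar size, and without control 1 the differences were -0.78 and -0.58. The probe shown passed under quantile normalization (-0.87, adjusted p 0.048) and under median scaling (-0.91, adjusted p 0.0432). The brighter one did not, at 0.0704 and 0.0534.

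Fzd6 had the narrowest interval of the tested probes. It read -1.66, -1.83 and -1.65 for CKO 1 to 3, beside -1.89, -1.85 and -1.54 for controls 1 to 3. The difference was 0.04 ± 0.17 (adjusted p 0.871), and its 95% confidence interval of -0.35 to 0.44 leaves out a change as large as the one measured for Fzd3. The contrast between Fzd3 and Fzd6 was not tested itself.

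Fzd4, Fzd9 and Fzd10 form another subfamily. Fzd10, known from the dorsal neural tube of vertebrate embryos, had a bright probe at which the CKO arrays stood just below the controls: log2 levels of 1.96, 2.31 and 2.12 (CKO 1 to 3) and 3.49, 2.43 and 2.45 (controls 1 to 3). Control 1 stood 1.05 above the mean of the other controls on the log2 scale, and the gap between the highest CKO array and the lowest control was small beside that spread. The difference was -0.66 ± 0.32 (95% confidence interval -1.42 to 0.09, adjusted p 0.199). Without control 1 it was -0.31 (adjusted p 0.24). The second Fzd10 probe, 943 bases away, gave levels of -1.64, -1.20 and -1.41 across CKO 1 to 3 and of 0.12, -1.69 and -0.87 across controls 1 to 3. There the groups overlapped, with control 2 below all CKO arrays and control 1 far above (difference -0.60 ± 0.44, adjusted p 0.374). Without control 1 the difference was -0.13, and without control 2 it was -1.04.

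Fzd9, known from the hippocampus and bone of the mouse, had 1 probe. It read -0.91, -0.84 and -1.18 for CKO 1 to 3, beside 0.61, 0.01 and -0.68 for controls 1 to 3. All CKO arrays were below all controls, although CKO 2 and control 3 nearly met. The difference was -0.96 ± 0.33 (95% confidence interval -1.76 to -0.16), with an adjusted p of 0.112 and a same-day value of -0.82. Without control 1 it was -0.64 (adjusted p 0.138).

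Fzd4, the receptor of Norrin in retinal and other vessels, was 1 of 3 members whose brightest probe had a difference above 0, though no member passed in either direction. Its probe gave log2 levels of 0.88, 1.28 and 1.29 (CKO 1 to 3) and 0.31, 0.88 and 1.25 (controls 1 to 3). Control 1 was the lowest array here, the reverse of most members. The difference was 0.34 ± 0.27 (95% confidence interval -0.31 to 0.99, adjusted p 0.411). It was 0.09 without control 1 and 0.56 without control 3. The 6 endothelial marker genes summed to 5.63 to 6.79 in CKO and 12 to 13.6 in controls, in multiples of the 75th percentile. The part of endothelium in the Fzd4 values was not tested.

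Fzd5 and Fzd8 form the last subfamily. Fzd5 is needed for vessel growth in the yolk sac and placenta of the mouse. Its tested probe (chromosome 1, 64977126 to 64977184) gave levels of -3.59, -4.02 and -3.39 across CKO 1 to 3 and of -4.36, -4.05 and -3.95 across controls 1 to 3. CKO 1 and CKO 3 were above all controls and CKO 2 lay among them. The difference was 0.45 ± 0.22 (95% confidence interval -0.07 to 0.98, adjusted p 0.204), and the same-day value 0.10. The other Fzd5 probe was not well above background on any of the 6 arrays and was not tested. The array's annotation writes it on the plus strand, opposite to the tested Fzd5 probe.

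Fzd8, expressed in the anterior neural tissue of the mouse, was the one gene with a probe under its own name that passed, and its probes gave differences of unlike size. The dimmer probe read -6.44, -6.55 and -6.50 for CKO 1 to 3, beside -4.58, -4.72 and -5.74 for controls 1 to 3. The CKO arrays lay close together and below every control, and 2 of the 3 CKO arrays and all 3 controls had signal well above background. It thus entered the test through the controls alone, and was not tested where all 6 arrays had to be well above background. This probe fell by 1.48 ± 0.32 on the log2 scale (95% confidence interval -2.25 to -0.72), with an adjusted p of 0.0385 and a same-day value of -1.54. The brighter Fzd8 probe, 3210 bases away on chromosome 18, gave log2 levels of -3.40, -3.39 and -3.09 (CKO 1 to 3) and -2.82, -3.08 and -3.51 (controls 1 to 3). These groups overlapped, with a difference of -0.15 ± 0.22 (95% confidence interval -0.68 to 0.38, adjusted p 0.657). The differences of the dimmer and brighter probes differed by -1.33, with all CKO arrays on one side of all controls and a two-sided exact permutation p of 0.1, the smallest it can give. Adjusted over the 5 genes with a pair of tested probes it was 0.5. As this test cannot go below 0.1, it could not decide whether the sizes differ. With 1 array left out the difference of the dimmer probe was -1.85 to -1.26, and it did not pass without CKO 1 (adjusted p 0.128), CKO 2 (0.0569), CKO 3 (0.13), control 1 (0.0512) or control 2 (0.145), and normexp background correction brought its difference to -0.59 (0.0683). With scan day or the class of spike-in signal (CKO 1 and CKO 3 low) as a block, which rests on CKO 2 against the controls, it was -1.54 (adjusted p 0.453 and 0.274).

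**Figure D3:**
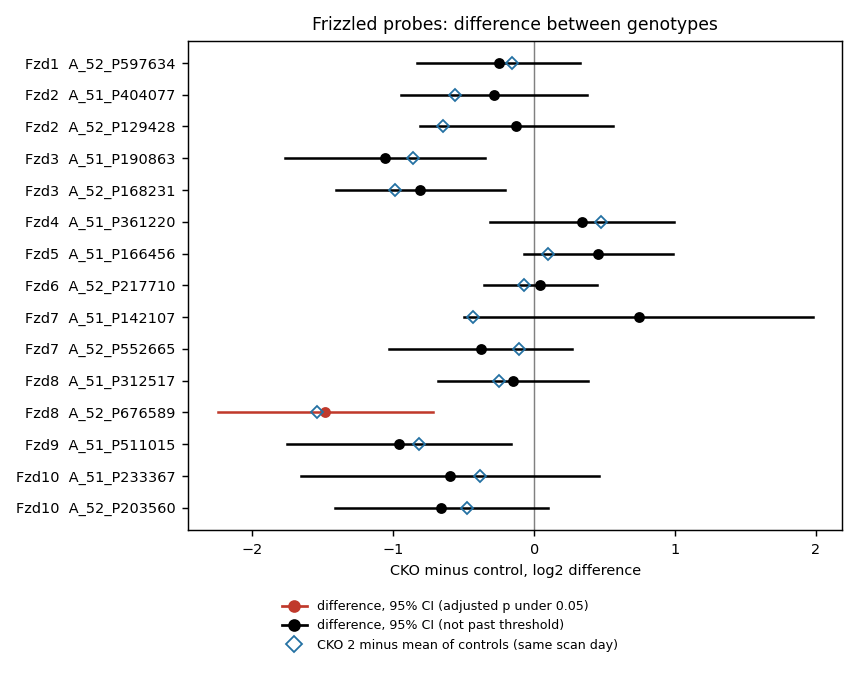
Difference between genotypes (CKO minus control, log2 scale) of the 15 tested Frizzled probes. Circles and lines give the limma estimate with its 95% confidence interval, red where the adjusted p is under 0.05, and open diamonds the same-day value; the dimmer Fzd8 probe alone is red, and the dimmer Fzd7 probe has estimate and same-day value on opposite sides of 0.

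Besides the Fzd7 and Fzd8 pairs, 3 other genes had a pair of tested probes. The differences of a pair lay 0.16 apart for Fzd2, 0.25 for Fzd3 and 0.06 for Fzd10 on the log2 scale (dimmer minus brighter). Levels of different probes were not compared as amounts of RNA, since probes differ in how strongly they bind.

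Most promoters of the family that could be read were rich in GC. RefSeq promoters of build GRCm38.p6, 300 bases each, were matched for 6 of the 10 members: Fzd1, Fzd4, Fzd5, Fzd7, Fzd9 and Fzd10. Their GC content was 54% to 78% with a median of 74.2%, against a median of 52.7% over 32851 promoters. The ratio of observed to expected CpG had a median of 0.86, against 0.38. Fzd1 had the lowest GC content of the 6.

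The ligands, co-receptors and partners of the Frizzled proteins changed about as often as other genes. Of 67 listed genes 64 were tested, and 3 rose and 5 fell, against 5.24% and 5.31% of all tested genes. Their median difference was -0.18 on the log2 scale, with 0.07 over all tested genes. Without control 1 the list's median was -0.11, and its same-day median -0.07. Among 18 tested Wnt ligands 2 rose and 2 fell. Wnt8a, a ligand of the primitive streak, rose by 2.41 ± 0.47 (SE, adjusted p 0.0306), with levels of -0.73, -0.93 and -0.78 across CKO 1 to 3 and of -2.20, -4.17 and -3.31 across controls 1 to 3. Wnt9b, which acts in kidney formation, rose by 1.46 ± 0.27 (adjusted p 0.0258). Wnt3a, needed for somites and tail growth, read -1.19, -1.11 and -1.33 for CKO 1 to 3, beside 1.04, 0.02 and 0.43 for controls 1 to 3. It fell by 1.71 ± 0.27 (adjusted p 0.018). Wnt2, a ligand of placental vessels and lung, fell by 1.60 ± 0.21 (adjusted p 0.0105). The same-day values of Wnt8a, Wnt9b, Wnt3a and Wnt2 were 2.30, 1.06, -1.61 and -1.38.

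**Figure D4:**
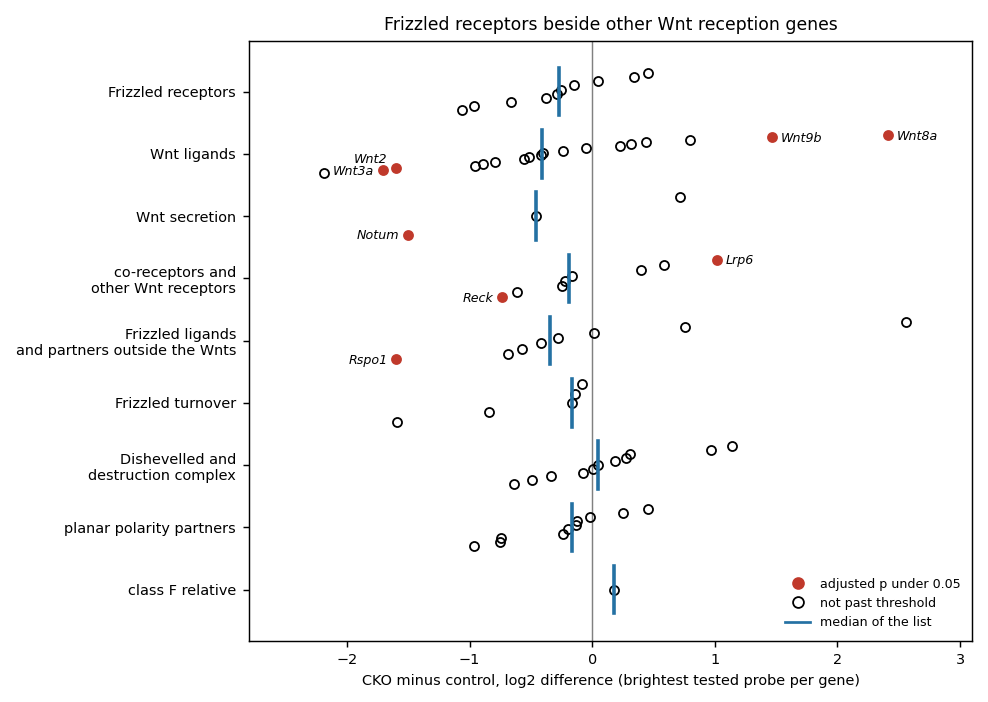
Differences (CKO minus control, log2 scale) of the 10 Frizzled genes and the 64 other tested Wnt reception genes, each through its brightest tested probe (for the Frizzled genes, among probes under their own name). Filled red circles passed an adjusted p of 0.05 and are named, blue bars are list medians, and no Frizzled receptor is filled.

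At the receptor complex itself, the co-receptor gene Lrp6 was higher in CKO. It gave log2 levels of -2.06, -1.40 and -1.78 (CKO 1 to 3) and -2.71, -2.70 and -2.88 (controls 1 to 3), and rose by 1.02 ± 0.21 (adjusted p 0.0343, same-day value 1.36). Lrp5, its relative, differed by 0.40 ± 0.31 (adjusted p 0.398). Reck, which helps endothelial cells receive Wnt7 ligands, fell by 0.73 ± 0.15 (adjusted p 0.0364). Of 8 tested genes of this list 1 rose and 1 fell, where 5.24% of all tested genes rose and 5.31% fell. Rspo1, an R-spondin that protects Frizzled receptors from removal, fell by 1.60 ± 0.34 (adjusted p 0.0391), as 1 of 8 tested ligands and partners outside the Wnts. Notum, which inactivates Wnt proteins and was listed with the secretion genes Porcn and Wls, fell by 1.50 ± 0.26 (adjusted p 0.0228). Neither Porcn (0.71, limma adjusted p 0.166) nor Wls (-0.46, 0.176) passed.

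Inside the cell and in receptor turnover no listed gene passed, where 10.5% of all genes did. By limma 0 of 5 turnover genes, 0 of 11 Dishevelled and destruction complex genes and 0 of 10 planar polarity partners passed, and at an unadjusted p under 0.05 they were 2, 3 and 1, with 32.5% of all genes. The smallest p values belonged to Shisa2, whose relatives retain Frizzled proteins inside the cell in Xenopus, at -0.84 ± 0.26 (adjusted p 0.0891), to Ctnnb1 (beta-catenin) at -0.49 ± 0.16 (0.101), and to Prickle2, a cytoplasmic polarity protein, at -0.75 ± 0.22 (0.0826). Smo, the Hedgehog receptor and closest relative of the Frizzled proteins outside the family, differed by 0.18 ± 0.24 (adjusted p 0.623). Of the 64 genes, 8 passed in all. The count was 0 without CKO 1 (12 at an unadjusted p under 0.05), 1 without CKO 3 and 1 without control 2. With scan day or spike-in class as a block it was 0, and 14 and 15 genes had an unadjusted p under 0.05.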

How the data were processed

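Per the labels, a Qiagen kit gave the RNA, of which 250 ng per sample took up Cy3 label. Per the file headers, the authors made the deposited intensity values with Agilent Feature Extraction 9.5, with background subtracted, trends over the array removed and no scaling between arrays. Other deposited columns hold flags of 0 or 1 (unit: other). The deposited series table holds the same intensity at 100% of spots (relative tolerance 1e-4).

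Spots with ControlType 0 were kept, outlier spots (53 to 83 per array) left out and spots of a probe averaged. Log2 values, with the 75th percentile of each array subtracted (958 to 1627 units), were compared by limma 3.58.1 in R 4.3.3, two-sided, with no covariate, over the 27847 probes well above background on all 3 arrays of a genotype. A gene was counted through its tested probe with the highest mean. Names came from RefSeq tables. The rule for named genes took every Frizzled and Smarca4 probe and, per list, up to 4 genes that passed or else the one with the smallest p. A further part, genes with a pattern like that of a changed Frizzled gene, named none. No Frizzled spot was saturated. The number of arrays limits the precision.

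The members and lists were chosen with earlier results of these data known. The fit was tested on simulated data.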

Additional observations from a re-analysis of the deposited data

How the results depend on the processing

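The count of changed Frizzled genes was 0 under every alternative run except array weights, which called 3, and an alternative chosen after seeing the data, with probes under a synonym taken in, which called 1. The estimate of the weights stopped before it converged and gave single arrays weights of 0.24 to 4.32. The count of changed Frizzled probes, 1 as reported, was 2 under quantile normalization and median scaling, 6 under array weights, and 0 with normexp, with no filter on dim probes, with only probes well above background on all 6 arrays (which leaves the dimmer Fzd8 probe untested), at an adjusted p of 0.01, and with scan day, the class of spike-in signal (CKO 1 and CKO 3 low) or the replicate number as a block (1 to 4 probes had an unadjusted p under 0.05 under these settings, the stricter threshold apart); leaving out 1 array gave 0 to 1. For the other Wnt reception genes, 8 as reported, the count was 2 with no filter, 32 with array weights, 0 with scan day or spike-in class as a block (14 and 15 at an unadjusted p under 0.05), 3 with the replicate block, and 0 to 9 with 1 array left out. Of all probes, 2608 passed as reported, 1125 with no filter, 15554 with array weights, 0 with scan day (3034 at an unadjusted p under 0.05), 170 with the spike-in class, 909 with the replicate block, and 472 to 4770 with 1 array left out. The direction turned for Fzd6 under median scaling (-0.056), with either scan day or spike-in class as a block (-0.0728) and without control 1 (-0.0203) or control 2 (-0.00257); for the dimmer Fzd7 probe with either scan day or spike-in class as a block (-0.437); for Fzd7 by the mean of its probes (0.18); for the brighter Fzd8 probe without control 1 (0.0061); for the brighter Fzd2 probe (0.0336) and the second Fzd10 probe (0.0597) under array weights; and for the second Fzd2 probe without CKO 2 (0.131). With 1 array left out, Fzd6 ran from -0.0203 to 0.156, the second Fzd2 probe from -0.317 to 0.131 and the brighter Fzd8 probe from -0.34 to 0.0061. None of these differences passed as reported, and the cause was not tested. Median scaling moved the median of all probes by -0.10 and turned the split of calls to 1103 higher and 1437 lower, against 1397 and 1211. The median of the Frizzled probes minus that of all probes was below 0 under every alternative run. Same-numbered arrays correlated at -0.13, 0.08 and 0.09 in their deviations, and differently numbered ones at -0.19 to 0.11. These values show no sign of a pairing by number, but with 3 arrays per genotype they cannot exclude one.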

Other observations

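A pair of probes outside the member rule carried older names that the RefSeq table lists as synonyms of Frizzled genes. They were added after their values were seen. The probe named AI427138, a synonym of Fzd5, lies on chromosome 1, 64974350 to 64974409 of build mm7, on the same written strand as the tested Fzd5 probe. It gave levels of -4.88, -3.60 and -4.38 across CKO 1 to 3 and of -2.58, -2.67 and -2.74 across controls 1 to 3, and fell by 1.63 ± 0.32 on the log2 scale (SE, limma adjusted p 0.0323). It did not pass in 8 of 18 alternatives, among them with either scan day or spike-in class as a block and without CKO 1, CKO 3, control 2 or control 3, and the adjusted p ran from 0.000763 to 0.305. All CKO arrays were below all controls, and CKO 2, of the controls' scan day, was the nearest to them, with a same-day value of -0.94. Averaged over the 6 arrays it is the brighter one, at -3.48 against -3.90 for the tested Fzd5 probe (log2 level). This came from the controls (mean -2.66 against -4.12), while in CKO it was the dimmer one (-4.29 against -3.67). The tested Fzd5 probe had a difference of the opposite sign (0.45), so the reading of Fzd5 on this array turns on which probe is taken. Whether the AI427138 transcript is part of Fzd5 RNA was not tested.

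The probe named D930050A07Rik, a synonym of Fzd3, is a further reading of that receptor. It read -0.50, -0.65 and -0.43 for CKO 1 to 3, beside 0.79, 0.42 and -0.20 for controls 1 to 3, again with no overlap. Its difference of -0.87 ± 0.27 (limma adjusted p 0.088) passed with array weights and without control 3 among the alternatives run (adjusted p from 0.00611 to 0.544), and lies between those of the other Fzd3 probes, -1.06 and -0.81. The 3 probes were read on the same arrays and are not independent of each other.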
